A study of Mus musculus with 6 samples.

Results

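Translation factors and aminoacyl-tRNA synthetases load amino acids onto tRNAs and carry the ribosome through initiation and elongation. The genes were chosen by symbol alone: initiation factors and their regulators (symbols starting Eif1 to Eif6), elongation factors and their regulators (Eef1 and Eef2), and synthetases (a letter followed by ars, ars1, ars2 or arsl, and Eprs), with Eif2s3y left out. The rule found 66 genes among the 9490 genes with a row of their own on the arrays. All 66 were tested, since no filter on low values was applied, and the lowest mean level among them was 8.06 on the log2 scale. The RefSeq gene table holds 106 protein-coding genes with such a symbol, Eif2s3y included, and the genes among them with no such row are not analysed here. Another 5 rows carry a symbol of these families together with other symbols and were not used.

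RNA came from cultured prostate cancer stem-like cells of TRAMP mice, a strain in which a viral oncogene under the probasin promoter acts in prostate epithelium and gives rise to intraepithelial neoplasia and later to invasive or neuroendocrine tumours. The 3 TNE samples came from prostates of mice with neuroendocrine tumours, whose age the labels do not give. The 3 TPIN samples came from prostates of mice 10 to 11 weeks old. One description field gives intraepithelial neoplasia for each of the 6 samples, so the groups rest on the titles and the cell type labels. Both groups carried the transgene, and both were grown without serum and with EGF and FGF2. Values are log2 expression from single-colour oligonucleotide arrays. Whether samples within a group stem from different mice or cultures is not stated, so p-values measure only the spread between them, which may be technical. In bulk samples fewer cells of a type and less RNA per cell cannot be told apart.

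Array medians lay between 8.82 and 9.10 in TNE and between 8.98 and 9.03 in TPIN, and correlations between arrays were 0.825 to 0.917 within TNE, 0.842 to 0.905 within TPIN and 0.549 to 0.733 across the groups. Of 18 listed neuroendocrine markers 8 were measured, and 4 of them rose in TNE (50%, against 20.5% of all genes called). Of the 8, 6 log2 differences were above 0 and 2 below, with 5 genes wholly higher in TNE and 1 wholly lower. Their list means were 8.80 to 9.85 in TNE and 7.56 to 8.29 in TPIN. Chga and Syp, which help define that cell type, are not analysed here. Of 15 measured markers of fibroblasts and smooth muscle 12 fell (80%, against 20.5% of all genes called). Their list means were 7.55 to 8.50 in TNE and 11.36 to 11.67 in TPIN. List means of 19 measured proliferation genes were 11.12 to 11.51 in TNE and 8.03 to 10.02 in TPIN. Of these genes 15 rose (78.9%, against 20.5% of all genes called), a count that was 9 without TNE replicate 2. Those of smallest p were Cdc6, Pcna and Mcm3, genes of DNA replication, with log2 differences of 2.28, 2.04 and 3.46 (limma adjusted p = 0.00260, 0.00376 and 0.00391). Of 16 listed epithelial markers only the keratins Krt8 and Krt18 were measured, and neither passed the threshold. Both were wholly lower in TNE, as were 20.5% of all genes (list means 7.47 to 7.70 in TNE, 8.06 to 8.14 in TPIN). Of 8 listed markers of stem-like prostate cells 5 were measured, and 1 rose and none fell (20%, against 20.5% of all genes called). Of these 5, 2 log2 differences were above 0 and 3 below. The part of these shifts in the results on translation genes was not tested.

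In translation, a synthetase joins each amino acid to its tRNA, and elongation factors carry the charged tRNA to the ribosome. Initiation starts when eIF2 brings the initiator tRNA to the small ribosomal subunit and the eIF4 factors recruit the capped mRNA, with eIF3 as the platform between them. Initiation is lowered by kinases that phosphorylate eIF2 alpha, which blocks the exchange factor eIF2B and favours translation of the stress factor ATF4, and by the 4E-BP proteins, which hold the cap-binding protein eIF4E until mTORC1 phosphorylates them.

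Across the 66 genes 2 rose in TNE, Eef1e1 and Eif4a3, and none fell (limma adjusted p under 0.05). That was 3.03% of the 66, against 20.5% of all genes tested in both directions together (10.3% higher in TNE and 10.2% lower). At an unadjusted p under 0.05 the count was 12, all higher in TNE, or 18.2% of the 66 against 38.9% of all genes. By role, 3 of the 12 were eIF4 genes, 3 mitochondrial synthetases and 2 elongation genes. Cytosolic synthetases, eIF3, eIF2 with eIF2B, and start site selection held 1 each, and the eIF2 alpha kinases and inhibitors of eIF4E held 0. Roles follow the symbol, so Eef1e1 counts with elongation and Eif4a3 with the eIF4 genes, whatever their products do. The median log2 difference, TNE minus TPIN, was 0.41 over the 66 genes and -0.02 over all genes. The difference was above 0 for 46 of the 66 genes (69.7%) and for 49.2% of all genes. Differences ran from -0.94 to 1.16, and 5 genes (Eif4h, Eef1e1, Eif4a3, Eif4e3 and Eif3m) were past an absolute log2 difference of 1, or 7.58% of the 66 against 31.6% of all genes.

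The 3 TNE arrays lay wholly above the 3 TPIN arrays for 22 of the 66, a larger share than the 23.3% over all genes. They lay wholly below for 3 of the 66 (Eif2ak4, Eif4b and Wars2), a smaller share than the 20.5% over all genes. The groups thus did not overlap for 37.9% of the 66 genes and 43.8% of all genes. Without TNE replicate 3 the number wholly above was 38. The number wholly below was 10 when TPIN replicate 3 was left out and 5 when TNE replicate 2 was. The mean over the 66 genes was 10.32, 10.38 and 9.95 on TNE arrays 1 to 3, against 9.84, 10.00 and 9.92 on TPIN arrays 1 to 3. On these means the third TNE array lay among the TPIN arrays. With the mean over all genes on the same array subtracted, TNE arrays 1 to 3 had 1.35, 1.47 and 1.17. TPIN arrays 1 to 3 then had 0.851, 0.988 and 0.998, so the third TNE array lay above all TPIN arrays on that scale. The third TNE array held the lowest value of its group for 48 of the 66 genes, a larger share than the 48.6% over all genes.

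**Figure D1:**
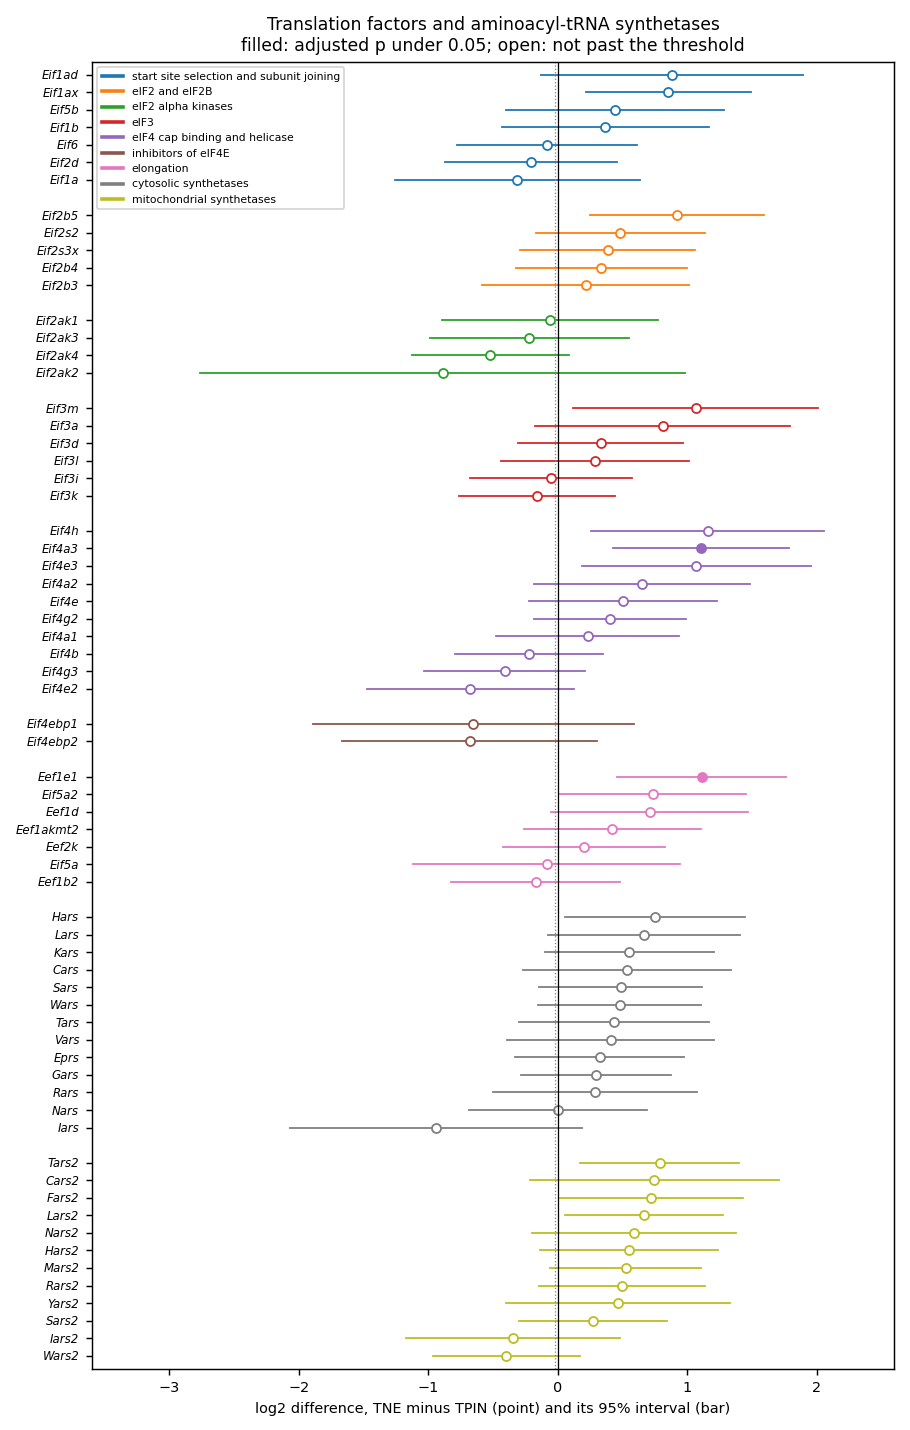
Log2 difference, TNE minus TPIN, of the 66 genes (horizontal axis), with its 95% interval as a bar, grouped and coloured by role. Filled points passed the adjusted threshold (Eef1e1 and Eif4a3), open points did not, and the dotted line is the median of all genes (-0.02). Most points lie right of 0, while the 4 eIF2 alpha kinases and both inhibitors of eIF4E lie left of it.

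**Figure D2:**
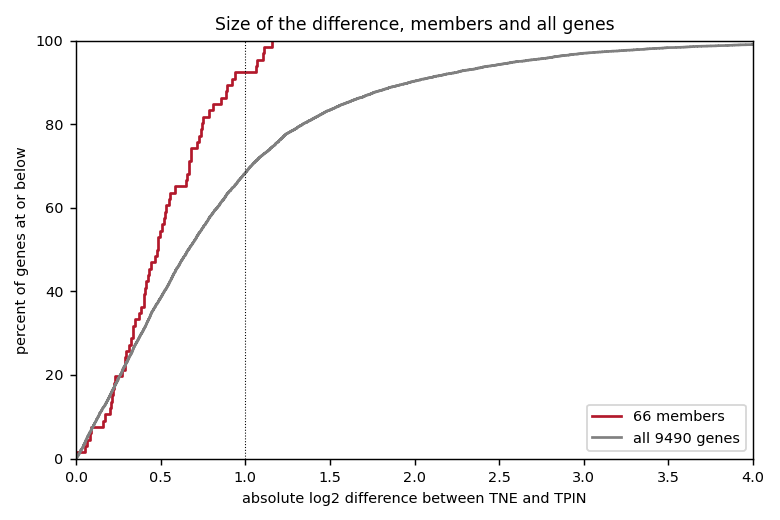
Cumulative percent of genes (vertical axis) with an absolute log2 difference between TNE and TPIN at or below the value on the horizontal axis, for the 66 genes (red) and all 9490 genes (grey). The red line is complete at 1.16, whereas 31.6% of all genes lie beyond the dotted line at 1.

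A missed threshold does not show that a gene was equal in both groups. The 95% interval of a difference had a median half-width of 0.70 over the 66 genes. For 18 of the 64 genes that did not pass, the whole interval lay within a log2 difference of 1 (2-fold) in either direction, and for the others it reached past 2-fold.

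Eef1e1 carries the name of an elongation factor and encodes a scaffold protein (AIMP3) of the multi-synthetase complex, which holds several cytosolic synthetases together. It had 10.88, 11.47 and 11.07 on TNE arrays 1 to 3, against 10.00, 10.22 and 9.86 on TPIN arrays 1 to 3. Every TNE array was above every TPIN array, and the gene was 2.16-fold higher in TNE (log2 difference 1.11, SE 0.28, limma adjusted p = 0.0309). The call was lost without TNE replicate 2 (limma adjusted p = 0.128), TNE replicate 3 (0.0596), TPIN replicate 1 (0.0940) or TPIN replicate 2 (0.0634).

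Aimp1 and Aimp2 encode the other scaffold proteins of the complex and fall outside the symbol rule. Aimp1 had 9.92, 10.45 and 10.15 on TNE arrays 1 to 3, against 8.04, 8.45 and 9.45 on TPIN arrays 1 to 3. The groups did not overlap, and the gene rose by 1.53 on the log2 scale (limma adjusted p = 0.0341). That call was lost without TNE replicate 2 or 3 or TPIN replicate 1 or 2 (limma adjusted p = 0.0707 to 0.120). Aimp2 had a log2 difference of 0.90 and did not pass (limma adjusted p = 0.137).

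Of the 5 measured synthetases of the complex none passed, and their median log2 difference was 0.32. Kars (lysine) had 10.20, 10.46 and 10.02 on TNE arrays 1 to 3, against 9.36, 9.82 and 9.84 on TPIN arrays 1 to 3. These groups did not overlap (log2 difference 0.55, limma adjusted p = 0.182). Lars (leucine), Eprs (glutamate and proline) and Rars (arginine) had log2 differences of 0.66, 0.32 and 0.29, and their groups overlapped. Iars (isoleucine) had 10.52, 10.72 and 9.69 on TNE arrays 1 to 3, against 11.30, 12.08 and 10.35 on TPIN arrays 1 to 3. It was the lowest difference of the 66 genes, -0.94 (SE 0.49, limma adjusted p = 0.190), and the third array was the lowest in each group, and the groups overlapped.

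**Figure D3:**
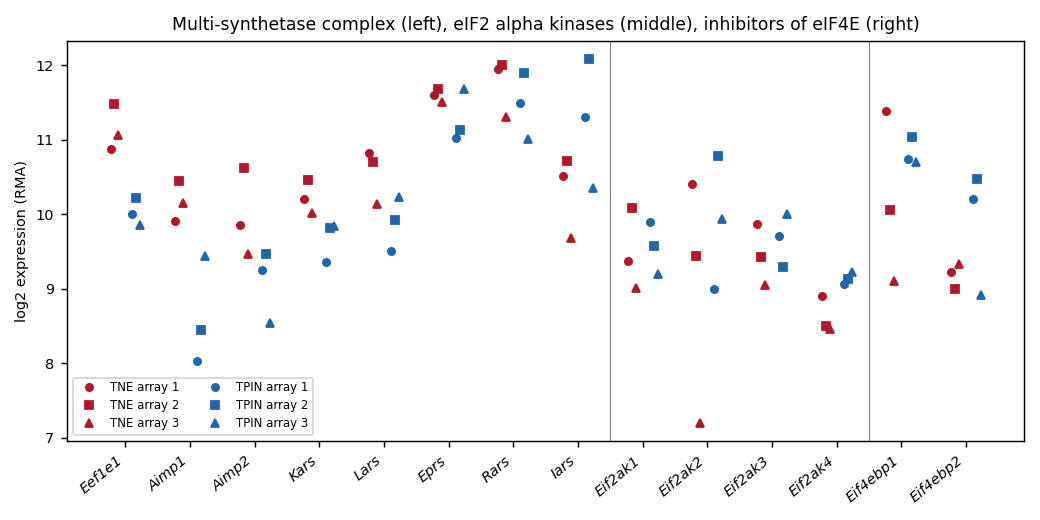
Log2 expression on each array (vertical axis) for genes of the multi-synthetase complex (left), the eIF2 alpha kinases (middle) and the inhibitors of eIF4E (right), TNE in red left of TPIN in blue, 1 symbol per array. Eef1e1, Aimp1 and Kars separate the groups upward and Eif2ak4 downward, and the TNE arrays of Eif2ak2 and Eif4ebp1 are spread widely.

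Among all 13 cytosolic synthetases none passed, 11 log2 differences were above 0, Nars was at 0.00 and Iars was below 0, with a median of 0.43. Groups did not overlap for 5 of them (38.5%, against 43.8% of all genes). All 5 were higher in TNE: Hars (histidine), Kars, Sars (serine), Wars (tryptophan) and Gars (glycine). Hars, of smallest p, had 10.35, 10.74 and 10.03 on TNE arrays 1 to 3, against 9.83, 9.35 and 9.70 on TPIN arrays 1 to 3. Its log2 difference was 0.75 (limma adjusted p = 0.109), and those of Sars, Wars and Gars were 0.49, 0.48 and 0.30. Nars (asparagine) had 12.40, 12.20 and 11.61 on TNE arrays 1 to 3, against 11.99, 12.16 and 12.05 on TPIN arrays 1 to 3. Both means were 12.07 and the interval of the log2 difference ran from -0.69 to 0.69. Cars (cysteine), Tars (threonine) and Vars (valine) had log2 differences of 0.53, 0.43 and 0.41 with overlap.

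The 12 mitochondrial synthetases are encoded in the nucleus and charge tRNA inside the organelle. None passed, 10 log2 differences were above 0 and 2 below, and the median was 0.54. Groups did not overlap for 66.7% of the 12, against 43.8% of all genes. Tars2, of smallest p, had 9.62, 9.91 and 9.47 on TNE arrays 1 to 3, against 8.92, 8.99 and 8.72 on TPIN arrays 1 to 3. Its groups did not overlap (log2 difference 0.79, SE 0.26, limma adjusted p = 0.0696). Lars2, Fars2, Mars2, Hars2, Rars2 and Sars2 were also wholly higher in TNE, with log2 differences of 0.66, 0.72, 0.52, 0.55, 0.50 and 0.27. Fars2 (phenylalanine) passed without TPIN replicate 3 (limma adjusted p = 0.0446).

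Wars2 (tryptophan) was the mitochondrial synthetase wholly lower in TNE. It had 7.96, 7.87 and 7.81 on TNE arrays 1 to 3, against 8.39, 8.22 and 8.22 on TPIN arrays 1 to 3. The step between the groups was narrow but wider than the spread within either (log2 difference -0.40, limma adjusted p = 0.257). Cars2, Nars2, Yars2 and Iars2 overlapped, with log2 differences of 0.75, 0.59, 0.47 and -0.35.

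Gars and Kars, grouped by symbol with the cytosolic synthetases, also serve mitochondria and are not counted as pairs. Among the 66 genes a cytosolic and a separate mitochondrial synthetase gene were both measured for 9 amino acids. Phenylalanine is left out, since cytosolic Farsa and Farsb (log2 differences 0.47 and 0.56, neither past the threshold) fall outside the symbol rule. Both log2 differences were above 0 for 6 of these pairs and both below 0 for 1, the isoleucine pair. The tryptophan pair had 0.48 for Wars and -0.40 for Wars2, each without overlap between the groups, and the difference between them was not tested. The asparagine pair had 0.00 for Nars and 0.59 for Nars2.

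Other factors of mitochondrial translation were read from a list of 14, of which 10 were measured. Of these 3 rose and none fell (30% called, against 20.5% of all genes), with a median log2 difference of 0.67. They were Qrsl1, a subunit of the amidotransferase that makes glutaminyl-tRNA in mitochondria (log2 difference 1.31, limma adjusted p = 0.0105), the initiation factor Mtif2 (1.15, 0.0248) and the elongation factor Gfm1 (1.25, 0.0307). Leaving out TNE replicate 2 gave a count of 0, and leaving out TNE replicate 1 or either of TPIN replicates 1 and 2 gave 1.

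Of 14 listed synthetase partners and relatives outside the symbol rule 12 were measured, 3 rose and 1 fell, with a median log2 difference of 0.66. The share called was 33.3%, against 20.5% of all genes. Beside Aimp1, the alanyl-tRNA editing protein gene Aarsd1 (log2 difference 1.80, limma adjusted p = 0.00925) and the threonyl-tRNA synthetase relative Tarsl2 (1.55, 0.0414) rose. Secisbp2l, a relative of the selenocysteine insertion factor gene Secisbp2, fell (-0.98, limma adjusted p = 0.0435). Aarsd1 passed without any 1 array. Tarsl2 passed without TNE replicate 3 but lost its call without any other array, as Secisbp2l did without any array but TPIN replicate 3.

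Eif4a3, the other gene that passed, encodes a DEAD-box helicase of the exon junction complex, a mark left on spliced mRNA. It had 9.79, 10.17 and 9.85 on TNE arrays 1 to 3, against 8.54, 8.72 and 9.22 on TPIN arrays 1 to 3. All TNE arrays were above all TPIN arrays, and the gene was 2.15-fold higher in TNE (log2 difference 1.11, SE 0.29, limma adjusted p = 0.0356). The call was lost without TNE replicate 1, 2 or 3 (limma adjusted p = 0.0604, 0.137 and 0.0650) and without TPIN replicate 1 or 2 (0.119 and 0.105). The similarly named Eif4a3l1 is not analysed here, and whether its transcripts add to this signal was not tested.

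The other 9 genes grouped by symbol with cap binding and the helicase did not pass. Eif4h, whose product stimulates the eIF4A helicase, had the highest log2 difference of the 66 genes. It had 12.06, 13.02 and 11.96 on TNE arrays 1 to 3, against 10.71, 11.25 and 11.61 on TPIN arrays 1 to 3. The groups did not overlap (log2 difference 1.16, SE 0.39, limma adjusted p = 0.0695), and the gene passed with arrays quantile-normalized again (0.0404). Eif4b, which also stimulates the helicase, had 11.07, 11.05 and 11.12 on TNE arrays 1 to 3, against 11.21, 11.45 and 11.24 on TPIN arrays 1 to 3. It was wholly lower in TNE by a small step (log2 difference -0.22, limma adjusted p = 0.525).

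Of the helicase genes themselves, Eif4a1 had a log2 difference of 0.23 and Eif4a2 of 0.65. Eif4a2 passed without TPIN replicate 3 (limma adjusted p = 0.0308). Of the scaffold genes, Eif4g2 was wholly higher in TNE (0.40), while Eif4g3 had -0.41 with overlap, both on the log2 scale.

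The 3 cap-binding genes differed in sign. Eif4e, the cap-binding protein of initiation, had 11.01, 11.61 and 11.17 on TNE arrays 1 to 3, against 10.55, 10.53 and 11.18 on TPIN arrays 1 to 3. These groups overlapped, with a log2 difference of 0.51 and an interval of -0.22 to 1.23. Eif4e3, a cap-binding relative, had 7.95, 8.57 and 9.27 on TNE arrays 1 to 3, against 7.55, 7.24 and 7.80 on TPIN arrays 1 to 3. It was wholly higher in TNE (log2 difference 1.07, limma adjusted p = 0.0804) and passed without TNE replicate 1 (0.0418). Eif4e2, a relative known for repressing translation, had a log2 difference of -0.68 with overlap (limma adjusted p = 0.186).

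**Figure D4:**
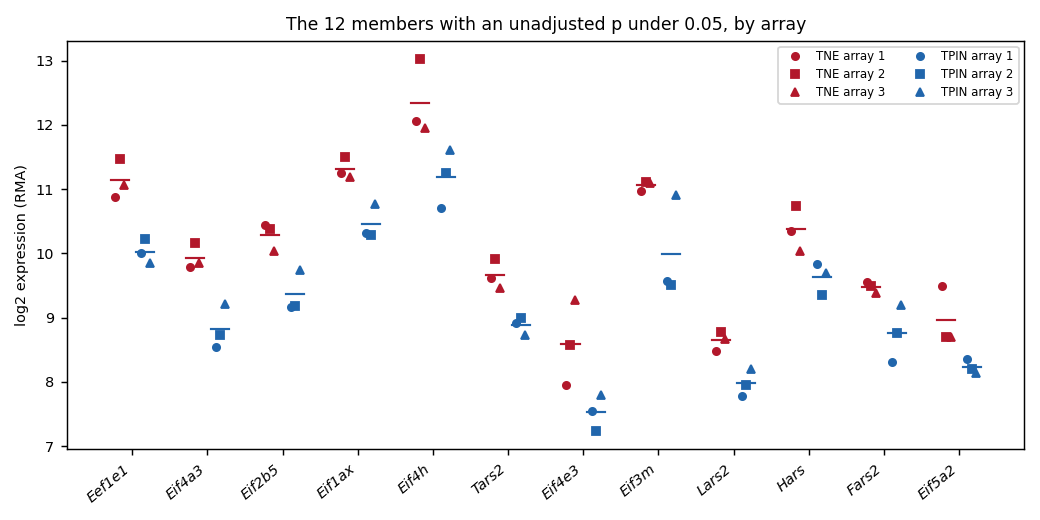
Log2 expression on each array (vertical axis) for the 12 genes with an unadjusted p under 0.05, ordered by p, TNE in red left of TPIN in blue, with group means as bars. In each gene the 3 TNE arrays lie above the 3 TPIN arrays, and only Eef1e1 and Eif4a3, at the left, passed after adjustment.

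Neither inhibitor of eIF4E passed. Eif4ebp1 had 11.38, 10.05 and 9.10 on TNE arrays 1 to 3, against 10.75, 11.04 and 10.70 on TPIN arrays 1 to 3. The first TNE array was above all TPIN arrays and the other 2 were below them (log2 difference -0.65, SE 0.54, limma adjusted p = 0.390). Eif4ebp2 had 9.22, 9.00 and 9.34 on TNE arrays 1 to 3, against 10.21, 10.47 and 8.92 on TPIN arrays 1 to 3. The third TPIN array was below all TNE arrays (log2 difference -0.68, limma adjusted p = 0.265), and without that array the log2 difference was -1.15 (limma adjusted p = 0.0257).

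Of 37 listed genes of the mTORC1 pathway, which acts on these inhibitors, 23 were measured. Among the 23, 2 rose and none fell, with a median log2 difference of 0.22. The 2 calls were 8.70% of the 23, against 20.5% of all genes. At an unadjusted p under 0.05 in limma 4 were higher and 2 lower, against 38.9% of all genes in both directions together. Leaving out TNE replicate 1, 2 or 3 gave a median of 0.089, 0.069 or 0.54. Rragb, a GTPase that helps bring mTORC1 to lysosomes, had 9.06, 8.77 and 8.84 on TNE arrays 1 to 3, against 5.36, 5.15 and 5.25 on TPIN arrays 1 to 3. The groups did not overlap (log2 difference 3.64, limma adjusted p = 0.000378), and the call held without any 1 array. No background level comes with the values and the TPIN values are low, so the TPIN side may be at background and the size of the difference is uncertain. Rhebl1, a relative of the mTORC1 activator Rheb, rose by 1.47 (limma adjusted p = 0.0155), a call lost without TNE replicate 2, TPIN replicate 1 or TPIN replicate 2. Mtor itself had a log2 difference of 0.06 (limma adjusted p = 0.905).

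None of the 5 genes of eIF2 and eIF2B passed, and all 5 log2 differences were above 0, with a median of 0.38 (0.19 without TPIN replicate 3). Eif2b5, the catalytic subunit of the exchange factor, had 10.44, 10.38 and 10.03 on TNE arrays 1 to 3, against 9.17, 9.18 and 9.73 on TPIN arrays 1 to 3. Its groups did not overlap (log2 difference 0.92, SE 0.29, limma adjusted p = 0.0578). It passed with arrays centred on their medians (limma adjusted p = 0.0490), with arrays quantile-normalized again (0.0451) and without TPIN replicate 3 (0.0281). Eif2s2, the beta subunit of eIF2, was wholly higher in TNE with a log2 difference of 0.48. Eif2s3x, the gamma subunit, had 0.38, and the exchange factor subunits Eif2b4 and Eif2b3 had 0.34 and 0.21, all with overlap.

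The 4 kinases that phosphorylate eIF2 alpha all had log2 differences below 0, and none passed. Their median was -0.37, and only -0.0006 without TNE replicate 3. Eif2ak4 (GCN2, which senses uncharged tRNA) had 8.90, 8.51 and 8.46 on TNE arrays 1 to 3, against 9.07, 9.14 and 9.23 on TPIN arrays 1 to 3. It was wholly lower in TNE (log2 difference -0.52, SE 0.26, limma adjusted p = 0.180). Eif2ak2 (PKR, activated by double-stranded RNA) had 10.41, 9.44 and 7.21 on TNE arrays 1 to 3, against 9.00, 10.79 and 9.94 on TPIN arrays 1 to 3. It had the widest range over the arrays of the 66 genes, and its log2 difference of -0.89 (SE 0.81) was 0.02 without TNE replicate 3. Eif2ak3 (PERK, the kinase of the endoplasmic reticulum) had -0.22, and -0.43 to -0.018 with 1 array left out. Eif2ak1 (HRI, activated by heme shortage) had -0.06, which was above 0 without TNE replicate 3 (0.18) or TPIN replicate 1 (0.11).

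Of 38 listed genes of ATF4 and the amino acid response 35 were measured. None rose and 2 fell. The share called was thus 5.71%, against 20.5% of all genes. At an unadjusted p under 0.05 in limma 2 were higher and 7 lower, against 38.9% of all genes in both directions together. The median log2 difference was -0.42, or -0.23 without TNE replicate 3, and 26 of the 35 were below 0. The glutamine transporter Slc1a5 had 9.47, 8.96 and 8.91 on TNE arrays 1 to 3, against 10.52, 10.99 and 10.95 on TPIN arrays 1 to 3. It fell in TNE (log2 difference -1.71, limma adjusted p = 0.00780) and passed without any 1 array. The glycine transporter Slc6a9 also fell (-1.71, limma adjusted p = 0.0409), a call lost without TNE replicate 2 or 3 or TPIN replicate 1 or 2. With TPIN replicate 3 left out the count of falls was 6, with TNE replicate 1 left out or arrays centred on their medians it was 4, and with any other array left out it was 1. Atf4 is not analysed here.

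**Figure D5:**
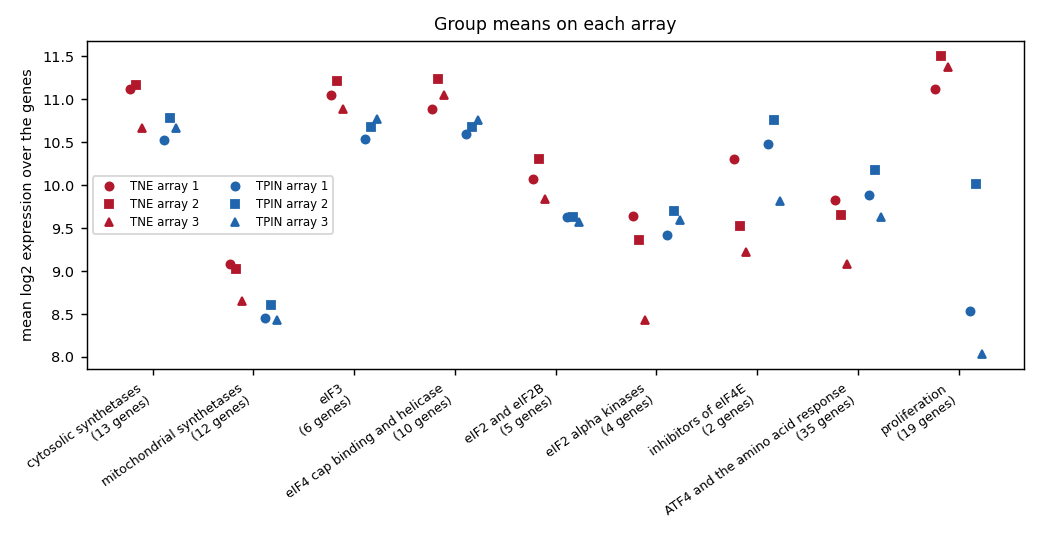
Mean log2 expression (vertical axis) over the genes of each set on each array, TNE in red left of TPIN in blue, 1 symbol per array. All TNE arrays lie above all TPIN arrays for the mitochondrial synthetases, eIF3, the eIF4 genes, the eIF2 and eIF2B genes and the proliferation genes, and the third TNE array lies among the TPIN arrays for the cytosolic synthetases.

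Of the 6 measured subunits of eIF3 none passed, and the median log2 difference was 0.31. The median was 0.12 without TPIN replicate 3 and 0.49 with arrays quantile-normalized again. Eif3m had 10.97, 11.11 and 11.09 on TNE arrays 1 to 3, against 9.57, 9.50 and 10.91 on TPIN arrays 1 to 3. The groups did not overlap, but the third TPIN array lay close to the TNE arrays (log2 difference 1.06, SE 0.41, limma adjusted p = 0.0967), and without it the gene passed (1.52, limma adjusted p = 0.0120). Eif3a, a core subunit, had 12.27, 12.20 and 11.44 on TNE arrays 1 to 3, against 10.74, 10.76 and 11.99 on TPIN arrays 1 to 3. The third TPIN array was above the third TNE array (log2 difference 0.81, limma adjusted p = 0.197), and without that TPIN array it passed too (0.0438). Eif3d, Eif3l, Eif3k and Eif3i had log2 differences of 0.33, 0.29, -0.16 and -0.05.

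Of 7 genes of start site selection and subunit joining none passed, with a median log2 difference of 0.37, which was 0.24 without TNE replicate 2 and 0.16 without TNE replicate 3. Eif1ax, an X-linked gene for eIF1A, had 11.25, 11.50 and 11.19 on TNE arrays 1 to 3, against 10.31, 10.29 and 10.78 on TPIN arrays 1 to 3. Its groups did not overlap (log2 difference 0.85, SE 0.27, limma adjusted p = 0.0617), and it passed with arrays quantile-normalized again (0.0412) and without TPIN replicate 3 (0.0312). Eif1a, another gene for eIF1A, had a log2 difference of -0.31 with overlap. The 2 genes are close in sequence, and whether their probes read each other's transcripts was not tested.

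Eif1ad, an eIF1A-like gene, had 10.59, 10.70 and 9.19 on TNE arrays 1 to 3, against 9.06, 9.58 and 9.19 on TPIN arrays 1 to 3. The third TNE array was level with the TPIN arrays (log2 difference 0.88, limma adjusted p = 0.173), and without it the gene passed (0.0305). Eif5b, which joins the ribosomal subunits, had a log2 difference of 0.44. Eif1b and Eif2d had 0.37 and -0.20, and Eif6, which keeps the large subunit from joining early, had -0.08.

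Besides Eef1e1, 6 genes were grouped with elongation by symbol, and none passed. Eif5a, which carries hypusine and helps the ribosome past difficult peptide bonds, had 11.69, 11.93 and 10.95 on TNE arrays 1 to 3, against 11.40, 12.44 and 11.00 on TPIN arrays 1 to 3. The groups overlapped, with a log2 difference of -0.09 and an interval of -1.12 to 0.94. Its relative Eif5a2 had 9.50, 8.70 and 8.69 on TNE arrays 1 to 3, against 8.35, 8.20 and 8.13 on TPIN arrays 1 to 3. It was wholly higher in TNE (log2 difference 0.74, limma adjusted p = 0.123). Eef1d and Eef1b2, subunits of the exchange factor of elongation, had 0.71 and -0.17, and Eef2k, the kinase that inhibits eEF2, and Eef1akmt2, a methyltransferase of eEF1A, had 0.20 and 0.42.

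Of 18 listed poly(A) and cap partners 12 were measured, and 16.7% of the 12 were called, against 20.5% of all genes. At an unadjusted p under 0.05 in limma 5 of the 12 were higher and 1 lower, against 38.9% of all genes in both directions together. Of the 12, 2 rose and none fell, with a median log2 difference of 0.65. They were Paip2b, an inhibitor of poly(A)-binding protein (log2 difference 1.40, limma adjusted p = 0.0109), and Ncbp2, a subunit of the nuclear cap-binding complex (1.02, 0.0299). Leaving out TNE replicate 2 gave 0 rises, leaving out TNE replicate 1 or either of TPIN replicates 1 and 2 gave 1, and leaving out TPIN replicate 3 gave 4 rises and 1 fall. Of 8 listed genes of release, recycling and rescue 6 were measured and 0 passed in limma, with 0 at an unadjusted p under 0.05 and a median log2 difference of 0.35 (0.52 without TNE replicate 3 and 0.53 with arrays quantile-normalized again).

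Myc is known for driving ribosome and translation genes. Of 20 listed genes of the Myc network 17 were measured, 4 rose and 1 fell, with a median log2 difference of 0.47. The share called was 29.4%, against 20.5% of all genes. The nucleolar genes Nop58 (log2 difference 1.64, limma adjusted p = 0.0128) and Nop56 (1.22, 0.0259), the Max partner Mxd3 (1.35, 0.0144) and the polyamine enzyme Odc1 (1.87, 0.0306) rose. Mlxip fell (-1.41, limma adjusted p = 0.0499), a call lost under 8 of the alternatives. Leaving out TNE replicate 2 gave 0 rises, TPIN replicate 1 gave 1 and TPIN replicate 2 gave 2, while leaving out TPIN replicate 3 gave 2 falls.

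Mycn had 7.30, 11.98 and 10.99 on TNE arrays 1 to 3, against 7.80, 7.96 and 7.83 on TPIN arrays 1 to 3. The first TNE array was below all TPIN arrays and the other 2 were far above them (log2 difference 2.22, limma adjusted p = 0.157). Myc had a log2 difference of -0.82 with overlap (limma adjusted p = 0.507). Mycl was wholly higher in TNE but did not pass (log2 difference 0.50, limma adjusted p = 0.205).

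Promoters were read from the RefSeq promoter table (build GRCm38.p6), which gives 300 bases per start, 250 before it and 50 after, and which matched 50 of the 66 genes with 62 promoters. The motifs were CACGTG, the E-box bound by the Myc family, and TGATGNAA, the core of the composite element bound by ATF4 with C/EBP proteins, both searched on both strands. CACGTG was in 13 of the 62 promoters (21.0%, from 11 genes), against 7.15% of all 32851 promoters in the table. TGATGNAA was in 5 of the 62 (8.06%, from 5 genes), against 3.97% of all promoters. A match is a description of the letters and not a site. The promoters of Eef1e1 (chr13:38658979-38659278, minus strand) and Eif4a3 (chr11:119299994-119300293, minus strand) are shown as those of the genes that passed, and held neither motif. That of Eif4h (chr5:134639360-134639659, minus strand), the gene of highest log2 difference, held CACGTG beginning 96 bases before the start. Each is printed 5′ to 3′ along the gene's strand, with the motif in capitals.
Eef1e1: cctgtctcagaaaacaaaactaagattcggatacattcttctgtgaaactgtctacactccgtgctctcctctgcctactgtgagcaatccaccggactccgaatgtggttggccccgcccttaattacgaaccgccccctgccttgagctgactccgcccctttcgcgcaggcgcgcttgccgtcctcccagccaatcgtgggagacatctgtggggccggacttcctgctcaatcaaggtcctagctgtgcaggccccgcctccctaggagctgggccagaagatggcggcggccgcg
Eif4a3: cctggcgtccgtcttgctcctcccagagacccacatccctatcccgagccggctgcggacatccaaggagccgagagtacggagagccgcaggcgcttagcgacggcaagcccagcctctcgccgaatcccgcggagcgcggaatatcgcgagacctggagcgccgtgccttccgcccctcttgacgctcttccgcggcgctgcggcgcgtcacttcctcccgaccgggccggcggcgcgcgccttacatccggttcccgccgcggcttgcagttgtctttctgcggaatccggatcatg
Eif4h: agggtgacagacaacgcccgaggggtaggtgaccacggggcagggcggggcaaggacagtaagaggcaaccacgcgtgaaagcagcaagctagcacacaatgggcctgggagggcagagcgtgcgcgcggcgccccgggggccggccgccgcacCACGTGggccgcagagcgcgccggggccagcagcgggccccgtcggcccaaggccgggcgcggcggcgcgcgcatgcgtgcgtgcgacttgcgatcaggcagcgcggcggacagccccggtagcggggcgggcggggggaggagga

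The synthetase promoters that held TGATGNAA were those of Gars (chr6:55037751-55038050, plus strand), Iars (chr13:49681880-49682179, plus strand) and Tars (chr15:11399609-11399908, minus strand). They are shown because these genes share the motif while their log2 differences were 0.30, -0.94 and 0.43. The motif, here in its reverse complement and in capitals, began 30 bases before the start in Gars, 15 bases before it in Tars and after it in Iars. The other run of capitals in Iars and Tars is CACGTG, which began 69 bases before the start in Iars and after it in Tars.
Gars: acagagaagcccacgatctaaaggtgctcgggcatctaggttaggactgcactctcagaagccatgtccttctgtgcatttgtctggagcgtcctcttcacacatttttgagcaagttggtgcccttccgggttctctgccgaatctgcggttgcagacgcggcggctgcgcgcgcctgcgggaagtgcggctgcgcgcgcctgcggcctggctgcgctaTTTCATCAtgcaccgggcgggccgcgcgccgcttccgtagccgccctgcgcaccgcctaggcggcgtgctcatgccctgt
Iars: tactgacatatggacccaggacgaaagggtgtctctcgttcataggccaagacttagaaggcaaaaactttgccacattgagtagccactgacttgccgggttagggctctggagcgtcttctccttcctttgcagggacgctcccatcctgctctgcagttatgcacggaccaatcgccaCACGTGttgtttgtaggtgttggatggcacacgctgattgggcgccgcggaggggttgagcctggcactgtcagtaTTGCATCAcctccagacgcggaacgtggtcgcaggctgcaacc
Tars: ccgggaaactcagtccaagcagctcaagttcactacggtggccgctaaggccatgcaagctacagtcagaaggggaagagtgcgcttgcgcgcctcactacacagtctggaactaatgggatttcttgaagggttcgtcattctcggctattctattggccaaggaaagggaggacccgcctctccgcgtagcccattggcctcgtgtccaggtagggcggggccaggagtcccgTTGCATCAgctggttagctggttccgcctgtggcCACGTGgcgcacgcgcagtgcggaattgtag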

How the data were processed

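RNA from 3 TNE and 3 TPIN samples was labelled with biotin and measured on single-colour arrays, per the labels' protocols. The deposited values are log2 expression, summarised by the authors with RMA according to the submitters' processing notes. This method brings arrays to a shared distribution, so a shift common to all genes is not seen. Medians of the deposited rows still differed between arrays, from 8.82 to 9.10. No source used here names the version of RMA or a genome build. The table holds 10361 rows and the rule that selected them is not given, so adjusted p-values refer to these rows. The number of arrays limits the precision.

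GEO's platform annotation gave a single symbol for 9496 rows, more than 1 for 374 rows and no symbol for 491. One value per gene was kept, from the row of highest mean (9490 genes). TNE was compared with TPIN in limma 3.58.1 (R 4.3.3) with a two-sided moderated test and Benjamini-Hochberg adjustment over all 9490 genes, at a threshold of 0.05. The limma step was tested on simulated data. Intervals are 95% and unadjusted. Genes named with array values passed the threshold or had the smallest p, largest difference or highest mean of their role, or work beside such a gene. From each pathway list the up to 3 genes of smallest p past the threshold were named, with Mtor, Myc, Mycn and Mycl. Marker lists are given as counts. Aimp2, Odc1, Secisbp2l and Mlxip, and the array values of further genes, were chosen after their values were seen. The genes and lists were chosen with earlier results of these data known.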

Additional observations from a re-analysis of the deposited data

How the results depend on the processing

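The median log2 difference of the 66 genes kept its sign under all 13 alternatives, between 0.30 and 0.51, and 45 to 52 of the 66 differences were above 0. The number that rose was 5 with arrays quantile-normalized again, where Eif1ax, Eif2b5 and Eif4h joined, and 3 with arrays centred on their medians. It stayed at 2 with dim genes left out (mean log2 under 6), an intensity trend, robust moderation, every row tested or the mean of a gene's rows. Leaving out 1 array gave 0 to 8 rises and 0 to 1 falls, 22 to 38 genes wholly higher in TNE and 3 to 10 wholly lower, and 832 to 2596 calls over all genes. In the lists, leaving out 1 array gave rises of 0 to 1 for release and rescue, 0 to 4 for mitochondrial factors, 1 to 3 for synthetase partners (falls 0 to 1), 0 to 4 for poly(A) and cap partners (falls 0 to 1, median 0.54 to 0.76), 1 to 3 for mTORC1 (falls 0 to 1), 0 to 1 for the amino acid response (falls 1 to 6), 0 to 4 for the Myc network (falls 0 to 2) and 9 to 19 for proliferation. With arrays quantile-normalized again the poly(A) and cap median was 0.74, the amino acid response had 1 rise, and the Myc network 0 falls, as it did with an intensity trend or robust moderation. With arrays centred on their medians the amino acid response had 1 rise and 4 falls.

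Signs turned for 7 genes near 0 or of wide spread, none past the threshold either way. With arrays quantile-normalized again Eef1b2, Eif5a and Eif6 had log2 differences of 0.037, 0.11 and 0.11. Leaving out 1 array gave -0.28 to 0.025 for Eef1b2, -0.36 to 0.18 for Eif2ak1, -1.58 to 0.017 for Eif2ak2, -0.19 to 0.060 for Eif3i, -0.016 to 0.41 for Eif4a1, -0.39 to 0.33 for Eif5a and -0.28 to 0.068 for Eif6. The causes were not tested. No paired analysis was possible because the replicate numbers follow the order of the series and the labels pair no samples.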
